A study of Mus musculus with 6 samples.

Results

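Aminoacyl-tRNA synthetases attach each amino acid to its tRNA, and their transcripts were compared between 2 subclone groups of the mouse melanoma line B16, Tyr-H and Tyr-L. The genes were taken by name from a list of 40, made up of 21 cytosolic synthetase genes, 16 mitochondrial synthetase genes (names ending in 2, except *Tarsl2*) and 3 scaffold genes, among 20788 genes listed in at least 1 library. The rule uses no measured value. Tyr-H cells are labelled as having high tyrosinase activity and Tyr-L cells as having low tyrosinase activity, and the methods describe the subclones as colonies grown out at low density from B16 cells. Both carry the C57BL/6 strain label and were grown alike in low-glucose DMEM with 10% serum, and the labels give no other difference between the groups. RNA of each was sequenced in 3 libraries, and whether these were separate cultures, or derive from a single subclone, is not stated in the sources, so the errors and p-values may cover only the spread between libraries.

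Cytosolic synthetases charge the tRNAs used by ribosomes in the cytosol, and a separate set of nuclear genes encodes the enzymes that charge mitochondrial tRNAs. *Gars* and *Kars* serve both compartments from a single gene, and *Eprs* charges 2 amino acids with 1 protein. Several cytosolic enzymes are held in a multisynthetase complex by the scaffold proteins encoded by *Aimp1*, *Aimp2* and *Eef1e1*. Many cytosolic synthetase genes are known targets of ATF4, the transcription factor made when amino acids run short or the endoplasmic reticulum is stressed. In melanocytes tyrosine has competing uses, since it is attached to tRNA by the product of *Yars* and oxidised on the way to melanin by tyrosinase, the product of *Tyr*.

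The sequence that ATF4 binds together with C/EBP proteins has the core TGATGNAA, and it is shown for the genes of the list that carry it because many of them moved together. RefSeq promoters on GRCm38.p6, 250 bases before to 50 bases after the gene start, were matched to 31 of the 40 genes. The core, searched on both strands, was found in 5 of 14 cytosolic synthetase genes, in 0 of 14 mitochondrial ones and in 0 of 3 scaffold genes. Counted per promoter and not per gene, it was found in 3.97% of all 32851 promoters. The genes without a matched promoter were *Cars*, *Hars*, *Hars2*, *Lars*, *Nars*, *Pars2*, *Rars*, *Vars* and *Wars*. *Eprs*, *Farsb*, *Mars* and *Sars*, which were also higher in Tyr-H cells, had a matched promoter without the core. In the lines that follow, 1 window is shown for each gene, and 30 bases are given 5′ to 3′ on the strand of the gene, with the core in capitals. The core lies on that strand in *Yars* and on the opposite strand in the others, where the letters printed are its reverse complement, and the windows do not overlap.
*Yars*, chr4:129189895-129189924: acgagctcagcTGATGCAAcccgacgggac
*Gars*, chr6:55037960-55037989: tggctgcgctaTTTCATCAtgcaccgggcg
*Aars*, chr8:111033840-111033869: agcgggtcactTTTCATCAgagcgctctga
*Iars*, chr13:49682126-49682155: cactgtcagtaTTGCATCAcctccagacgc
*Tars*, chr15:11399655-11399684: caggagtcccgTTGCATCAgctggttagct
The core shown began 3 bases downstream of the RefSeq gene start in *Yars*, 30 bases upstream in *Gars*, 9 bases downstream in *Aars*, 7 bases downstream in *Iars* and 15 bases upstream in *Tars*. A match describes letters in this window and is not evidence that the factor was bound, and a missing match says nothing about the rest of the gene.

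Values are FPKM, fragments per kilobase of transcript scaled to the mapped total of the library, which can be compared between genes as levels per length. The estimated depth was 18800000 to 21200000 fragments in Tyr-L and 19400000 to 22200000 in Tyr-H libraries. All 40 genes were listed in all 6 libraries, and the lowest value among them corresponded to about 200 fragments, so none was near the limit of detection. *Tyr* itself was higher in every Tyr-H library, at 21.3 ± 2.14 FPKM against 10.0 ± 0.602 in Tyr-L (mean ± SD, n = 3 libraries). All 8 melanocyte markers checked were listed, and their summed level was 7370 to 7686 FPKM in Tyr-L against 5450 to 5973 in Tyr-H libraries, with 7 of the 8 lower in Tyr-H cells at an adjusted p of at most 0.05 (limma), against 39.9% of all tested genes. Of 8 markers of immune, endothelial, epithelial and fibroblast cells, *Ptprc*, *Cd3e* and *Adgre1* were unlisted in every library. The whole list summed to 0.391 to 0.396 FPKM in Tyr-L against 0.582 to 0.772 in Tyr-H libraries. *Col1a1*, the 1 gene of this list with enough signal to be tested, went from 0.327 to 0.599 FPKM (limma adjusted p = 0.017). The part of the lower melanocyte markers in the results was not tested.

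A gene was counted as higher or lower at an adjusted p of at most 0.05 in a limma fit over 14336 genes. In Tyr-H cells 15 of the 21 cytosolic synthetase genes rose and 0 fell, while 6 did not pass the test. By the same rule 17.9% of all tested genes were higher and 39.9% lower. With unadjusted p-values from limma the counts were also 15 and 0. The median log2 fold change of the cytosolic set was 0.55, against -0.15 for all tested genes, and all 21 genes lay above that median, with the set's median 0.71 higher. Their range was -0.08 to 1.18. Summed over the 21 genes, the level was 1336, 1419 and 1374 FPKM in Tyr-L against 2180, 2203 and 2228 in Tyr-H libraries, a ratio of means of 1.601. The 3 libraries of a group lay close together, with a median coefficient of variation of 2.6% over the cytosolic genes. In bulk RNA, more expressing cells and more RNA per cell cannot be told apart.

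**Figure D1:**
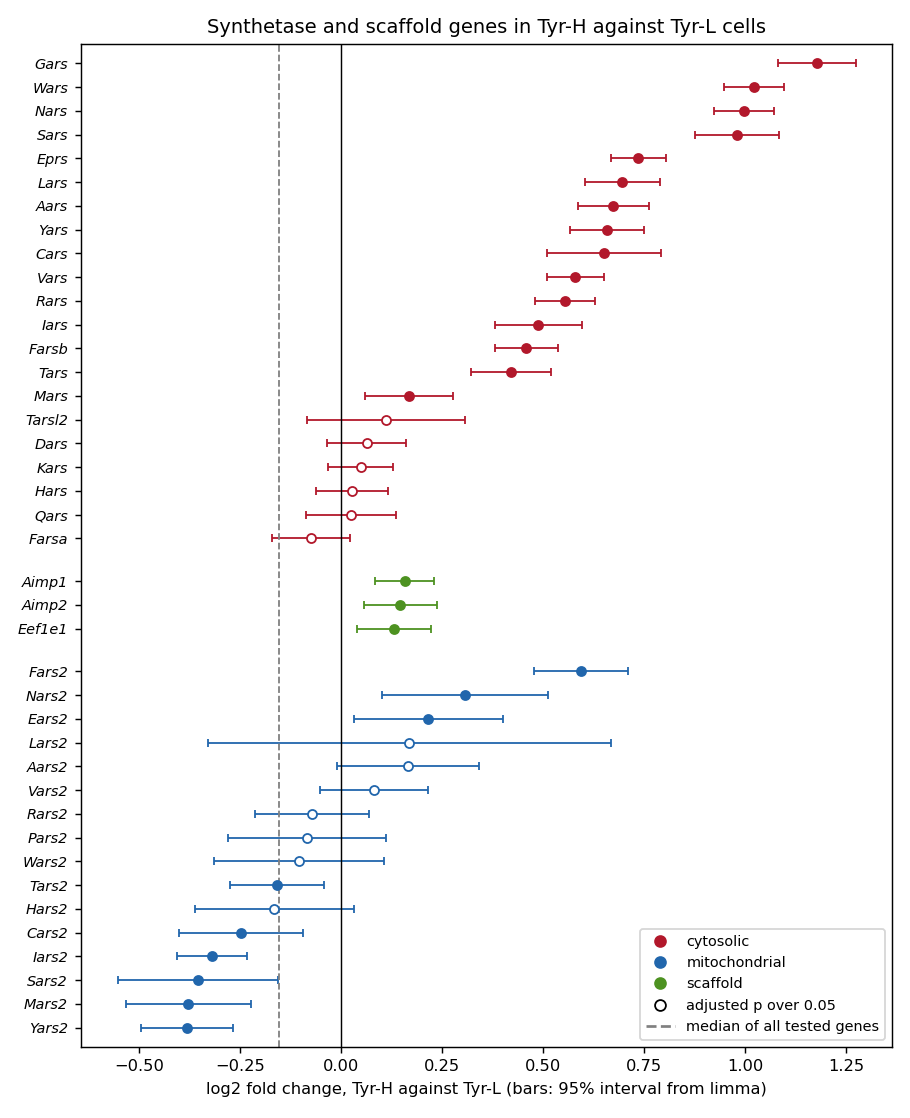
Log2 fold change of each synthetase and scaffold gene, Tyr-H against Tyr-L, with its 95% interval from limma; filled points have an adjusted p of at most 0.05, and the dashed line marks the median of all tested genes (-0.15). Of the cytosolic points 15 are filled and lie right of 0, whereas 6 filled mitochondrial points lie left of it and 3 right of it.

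The largest rise was that of *Gars* (ENSMUSG00000029777, chr6:55038007-55079500, plus strand, GRCm38), which encodes the glycyl-tRNA synthetase of both compartments. Its level was 169.9, 189.0 and 180.7 FPKM in Tyr-L against 397.7, 405.2 and 416.4 in Tyr-H libraries. The groups lay far apart, and the fold change was 2.26 (log2 fold change 1.18 ± 0.04 SE, limma adjusted p = 1.7e-07). *Wars* (ENSMUSG00000021266, chr12:108860030-108894174, minus strand), the tryptophanyl-tRNA synthetase gene, was listed at 60.5, 62.8 and 61.1 FPKM in Tyr-L against 123.4, 123.3 and 128.1 in Tyr-H cells. It rose 2.03-fold (log2 fold change 1.02 ± 0.03 SE, limma adjusted p = 9.2e-08). These were the 2 genes of the list that also passed a fold change of 2 at an adjusted p of at most 0.05, a rule met upwards by 2.96% and downwards by 5.78% of all tested genes. The number of cytosolic genes that met it was 4 without Tyr-L replicate 2 and with median-ratio or quantile scaling, 3 without Tyr-H replicate 1, and 1 with libraries rescaled to one total.

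*Nars* (ENSMUSG00000024587), which encodes the asparaginyl-tRNA synthetase, fell just short of that fold. It was at 127.9, 134.8 and 131.8 FPKM in Tyr-L against 257.1, 265.2 and 265.1 in Tyr-H cells. Its log2 fold change was 0.997 (SE 0.03, limma adjusted p = 1.0e-07). *Sars* (ENSMUSG00000068739, chr3:108424865-108445209, minus strand), the seryl-tRNA synthetase gene, was at 113.5, 128.9 and 119.6 FPKM in Tyr-L against 233.1, 237.0 and 242.6 in Tyr-H cells, with a log2 fold change of 0.98 (SE 0.05, limma adjusted p = 5.0e-07). For both genes every Tyr-H library was above every Tyr-L library. The most abundant cytosolic transcripts in Tyr-H cells were *Gars*, *Nars*, *Sars* and *Eprs*, the last encoding the joint glutamyl- and prolyl-tRNA synthetase, and together they made up 48.2% of the summed level of the set in Tyr-H and 38.1% in Tyr-L cells.

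*Yars* (ENSMUSG00000028811, chr4:129189760-129219607, plus strand), the gene for the enzyme that charges tyrosine, was listed at 27.8, 29.5 and 29.4 FPKM in Tyr-L against 46.1, 44.1 and 46.6 in Tyr-H libraries. All Tyr-H values were higher, with means of 28.9 ± 0.963 and 45.6 ± 1.32 FPKM (SD, n = 3 each). The rise was 1.58-fold (log2 fold change 0.66 ± 0.04 SE, limma adjusted p = 2.1e-06). An exact two-sided permutation test of 3 libraries against 3 gave p = 0.1, the smallest value this design allows. Among the 21 cytosolic genes 7 had a larger and 13 a smaller log2 fold change, and *Yars* lay 0.14 above the median of the other 20, which was 0.52. The tyrosyl gene therefore stood within the range of its set. The 95% interval of its log2 fold change from limma was 0.565 to 0.749. That interval excludes 0.52 and also the median of the whole set, 0.554. The difference of *Yars* from its set was not tested. By level *Yars* ranked 19 of 21 in Tyr-L and 18 of 21 in Tyr-H cells. Its annotated exons share 30 of 5943 bases with *C77080* on the opposite strand, whose mean level was 5.71 FPKM in Tyr-L against 6.94 in Tyr-H cells, and no source used here states whether reads were counted by strand.

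**Figure D2:**
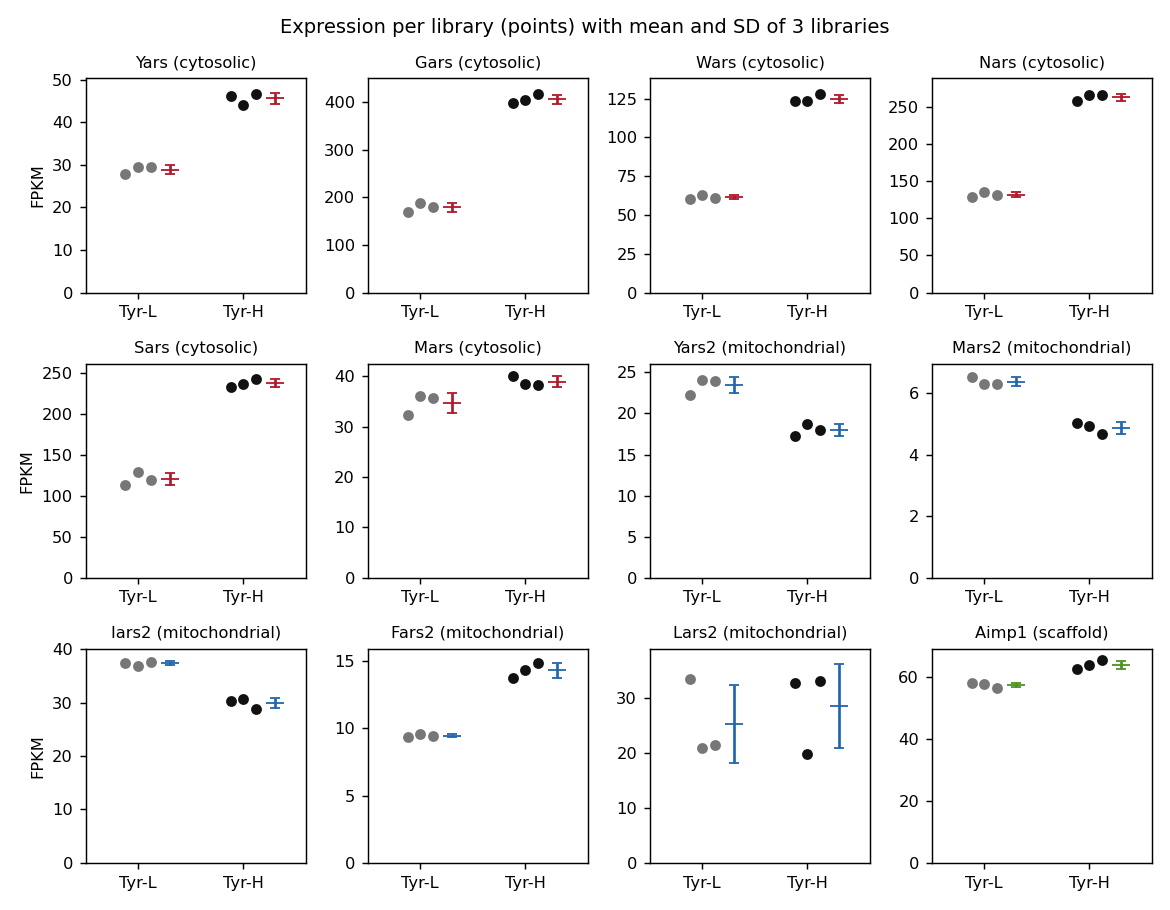
Level in FPKM of 12 synthetase and scaffold genes in each library, with the mean and SD of the 3 libraries of a group; each panel has its own axis. The Tyr-H points of *Gars*, *Wars*, *Nars*, *Sars* and *Yars* lie above all Tyr-L points, those of *Yars2*, *Mars2* and *Iars2* lie below them, and the *Lars2* points of the groups overlap.

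Of the other cytosolic genes that rose, *Eprs* went up 1.67-fold, *Lars* (leucine) 1.62-fold, *Aars* (alanine) 1.595-fold and *Cars* (cysteine) 1.57-fold. *Vars* (valine), *Rars* (arginine), *Iars* (isoleucine), *Farsb* (the beta subunit for phenylalanine) and *Tars* (threonine) rose between 1.34-fold and 1.495-fold. The smallest rise that passed was that of *Mars*, the methionyl-tRNA synthetase gene, at 32.4, 36.0 and 35.7 FPKM in Tyr-L against 40.1, 38.5 and 38.2 in Tyr-H cells. Its log2 fold change was 0.17 (SE 0.05, limma adjusted p = 0.015). The exons of *Mars* share 68 of 3423 bases with *Ddit3* on the opposite strand, a stress-response gene whose mean was 22.7 FPKM in Tyr-L against 107.5 in Tyr-H cells. The part of *Ddit3* reads in the value of *Mars* was not tested, and *Mars* did not pass when the libraries were rescaled to one total (log2 fold change 0.07) or without Tyr-H replicate 1 (0.15), nor without the variance trend in limma (adjusted p = 0.057). The exons of *Aars* share 1326 of 9282 bases with *Exosc6* on the same strand, listed at a mean of 3.00 FPKM in Tyr-L and unlisted in Tyr-H cells.

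The 6 cytosolic genes that did not pass were *Tarsl2*, *Dars*, *Kars*, *Hars*, *Qars* and *Farsa*. The log2 fold change of *Kars*, for lysine, was 0.05 with a 95% interval of -0.03 to 0.13, and that of *Dars*, for aspartate, was 0.06 with an interval of -0.03 to 0.16. *Hars*, for histidine, was at 0.03 (-0.06 to 0.12) and *Qars*, for glutamine, at 0.02 (-0.09 to 0.14). These intervals exclude the set's median of 0.55. *Farsa*, the alpha subunit of the phenylalanyl enzyme, had a log2 fold change of -0.08 (-0.17 to 0.02), while its partner subunit *Farsb* rose from 74.4 ± 1.33 to 102 ± 2.96 FPKM (log2 fold change 0.46, limma adjusted p = 5.5e-06). *Tarsl2*, a paralog of *Tars* with which it may share reads, had the lowest level of the set, 3.28 FPKM in Tyr-L against 3.55 in Tyr-H cells. Its exons share 120 of 6741 bases with *Tm2d3* on the same strand, at 19.6 FPKM in Tyr-L against 17.3 in Tyr-H cells.

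The cytosolic genes were also counted against a listing of known ATF4 targets, made from general knowledge. All 12 genes so listed rose (*Aars*, *Cars*, *Eprs*, *Gars*, *Iars*, *Lars*, *Mars*, *Nars*, *Sars*, *Tars*, *Wars* and *Yars*), with a median log2 fold change of 0.68 and a range of 0.17 to 1.18, against 17.9% of all tested genes higher. Of the 9 others, 3 rose (*Farsb*, *Rars* and *Vars*) and the median was 0.06. This listing was written with earlier results of these data known, so the split is a description and not independent evidence. *Atf4* itself went from 132 ± 10.5 to 312 ± 23.4 FPKM (log2 fold change 1.24). All 7 genes of the reference list, *Atf4* and genes known to respond to it, rose, 6 of them at least 2-fold (2.96% of all tested genes), with a median log2 fold change of 1.85. Among these was *Trib3*, a pseudokinase gene induced by stress, with a log2 fold change of 3.61. The reference list was also chosen with earlier results of these data known, so its count is not independent evidence. The part of ATF4 in the rise of the synthetase genes was not tested.

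Of the 8 cytosolic enzymes that sit in the multisynthetase complex, 5 rose, with a median log2 fold change of 0.33, and of the 13 outside it 10 rose, with a median of 0.65, against 17.9% of all tested genes. The difference between these subgroups was not tested. Within the complex the 4 genes on the ATF4 listing, *Eprs*, *Iars*, *Lars* and *Mars*, all rose (median 0.59), and of the other 4, *Dars*, *Kars*, *Qars* and *Rars*, 1 did (median 0.06). The log2 fold changes of the scaffold genes were 0.13 to 0.16, below the median of 0.33 for the 8 enzymes of the complex. They lay above those of *Dars*, *Kars* and *Qars*, and the difference was not tested. *Aimp1* was at 58.0, 57.6 and 56.6 FPKM in Tyr-L against 62.7, 63.8 and 65.4 in Tyr-H cells (log2 fold change 0.16 ± 0.03 SE, limma adjusted p = 0.0027). *Aimp2* was at 30.8, 32.4 and 30.6 FPKM in Tyr-L against 34.0, 35.5 and 34.2 in Tyr-H cells (0.15 ± 0.04, adjusted p = 0.012). *Eef1e1* was at 61.9, 62.2 and 59.1 FPKM in Tyr-L against 67.0, 64.0 and 69.6 in Tyr-H cells (0.13 ± 0.04, adjusted p = 0.021). In all 3 every Tyr-H library was above every Tyr-L library, as in 20.2% of all tested genes, yet none of the 3 passed when libraries were rescaled to one total. *Eef1e1* also lost its call without Tyr-L replicate 3 (adjusted p = 0.083), without Tyr-H replicate 3 (adjusted p = 0.067) or without the variance trend (adjusted p = 0.078). The exons of *Aimp2* share 487 of 1654 bases with *Eif2ak1*, which was at 17.3 FPKM in Tyr-L against 15.99 in Tyr-H cells.

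Of the 16 mitochondrial synthetase genes 3 rose, 6 fell and 7 did not pass the test, and the median log2 fold change was -0.09. Their shares were near those of all tested genes, 17.9% higher and 39.9% lower, so these counts say nothing particular to the mitochondrial genes. None passed the 2-fold rule, and 9 of the 16 lay above the median of all genes. Groups did not overlap, with Tyr-H higher, in 16 of 21 cytosolic and 5 of 16 mitochondrial genes, against 20.2% of all tested genes. With Tyr-H lower the counts were 0 and 6, against 43.8% of all tested genes. The summed level was 197.6 to 211.9 FPKM in Tyr-L against 185.3 to 195.1 in Tyr-H libraries, a ratio of means of 0.941, and the median level per gene was 9.1 FPKM in Tyr-L cells against 61.1 FPKM for the cytosolic set. The coefficient of variation was also larger, with a median of 5.1%.

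**Figure D3:**
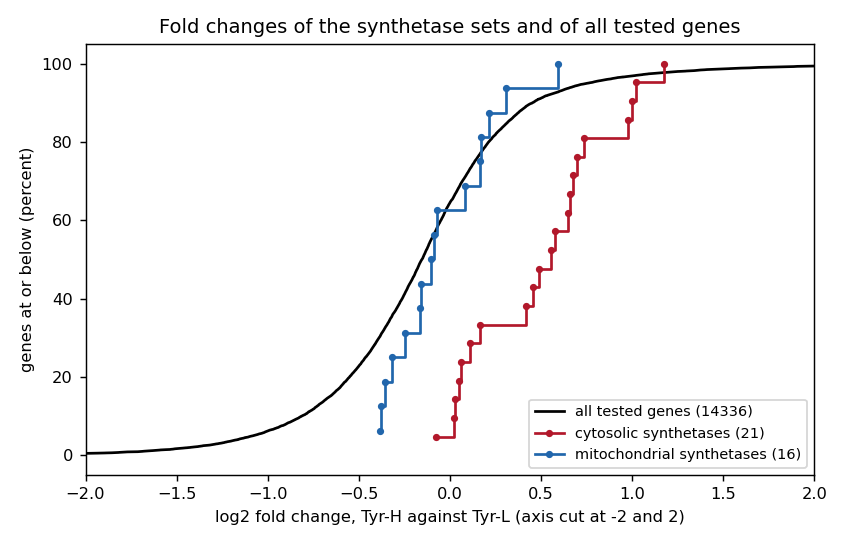
Cumulative share of genes by log2 fold change, Tyr-H against Tyr-L, for all 14336 tested genes, the 21 cytosolic and the 16 mitochondrial synthetase genes; the horizontal axis is drawn from -2 to 2. The cytosolic median (0.55) lies right of the others, although the largest cytosolic value is 1.18 and the curve of all genes runs on beyond it, and the mitochondrial median of -0.09 lies near that of all genes, -0.15.

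*Yars2* (ENSMUSG00000022792, chr16:16302965-16309640, plus strand), the mitochondrial tyrosyl-tRNA synthetase gene, was among the genes of the 40 with the lowest log2 fold change, with *Mars2* and *Sars2*. *Yars2* was listed at 22.3, 24.1 and 24.0 FPKM in Tyr-L against 17.2, 18.7 and 18.0 in Tyr-H libraries. Every Tyr-H library was below every Tyr-L library (log2 fold change -0.38 ± 0.05 SE, limma adjusted p = 0.00016), and the exact permutation test gave p = 0.1, again the smallest possible. *Mars2* (methionine) was at 6.53, 6.30 and 6.27 FPKM in Tyr-L against 5.04, 4.92 and 4.66 in Tyr-H cells (-0.38 ± 0.07, adjusted p = 0.0012). *Sars2* (serine) was at 8.90, 8.02 and 9.27 FPKM in Tyr-L against 7.62, 6.545 and 6.28 in Tyr-H cells (-0.36 ± 0.09, adjusted p = 0.0070). Both fell without overlap between the groups. *Iars2* (isoleucine) also fell, at 37.5, 36.9 and 37.7 FPKM in Tyr-L against 30.3, 30.6 and 28.8 in Tyr-H cells (-0.32 ± 0.04, adjusted p = 9.0e-05), and its exons share 2034 of 8885 bases with *Rab3gap2*, at 20.8 FPKM in Tyr-L against 22.5 in Tyr-H cells. *Cars2* (-0.25) and *Tars2* (-0.16) were the other genes that fell. The exons of *Cars2* share 422 of 7237 bases with *Naxd* on the opposite strand, at 17.8 FPKM in Tyr-L against 19.1 in Tyr-H cells. With median-ratio scaling *Sars2* (-0.20), *Cars2* (-0.10) and *Tars2* (-0.01) no longer passed. *Tars2* also lost its call without Tyr-L replicate 1, Tyr-H replicate 1 or Tyr-H replicate 2 (adjusted p from 0.077 to 0.086), and without the variance trend (adjusted p = 0.062).

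The mitochondrial gene that rose most was *Fars2*, for phenylalanine. It was at 9.36, 9.55 and 9.44 FPKM in Tyr-L against 13.7, 14.3 and 14.9 in Tyr-H cells, a 1.51-fold rise (log2 fold change 0.59 ± 0.05 SE, limma adjusted p = 1.3e-05). Its exons share 115 of 5747 bases with *Lyrm4* on the opposite strand, at 7.23 FPKM in Tyr-L against 8.40 in Tyr-H cells. *Nars2* (asparagine) was at 4.89, 5.37 and 5.00 FPKM in Tyr-L against 5.62, 6.98 and 6.37 in Tyr-H cells (0.31 ± 0.09, adjusted p = 0.017). *Ears2* (glutamate) was at 4.34, 4.14 and 4.69 FPKM in Tyr-L against 4.83, 5.36 and 5.15 in Tyr-H cells (0.22 ± 0.08, adjusted p = 0.047). Both passed narrowly, and 1 library could end either call. The adjusted p of *Nars2* was 0.051 to 0.064 without Tyr-L replicate 1, Tyr-L replicate 3 or Tyr-H replicate 2, and that of *Ears2* was 0.099 to 0.14 without Tyr-L replicate 1 or 2 or Tyr-H replicate 2 or 3. *Ears2* also missed the threshold with a pseudocount of 1 (adjusted p = 0.051) and with no filter on low values (adjusted p = 0.066). The exons of *Ears2* share 89 of 5152 bases with *Ubfd1* on the opposite strand, at 20.2 FPKM in Tyr-L against 13.6 in Tyr-H cells. *Lars2* (leucine) was the least repeatable gene of the list, at 33.59, 20.997 and 21.56 FPKM in Tyr-L against 32.9, 19.8 and 33.2 in Tyr-H cells, and its log2 fold change of 0.17 had an interval of -0.33 to 0.67. Without *Lars2* the summed mitochondrial level was 178.0 ± 1.8 FPKM in Tyr-L against 162.8 ± 2.4 in Tyr-H cells (SD over 3 libraries), a ratio of 0.914.

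The counts of both sets moved with the scaling of the libraries. With median-ratio scaling, which moved the median log2 fold change of all genes from -0.15 to -0.01, 20 cytosolic genes rose, and 5 mitochondrial genes rose and 3 fell, against 27.9% of all tested genes higher and 27.0% lower under that scaling. With libraries rescaled to one total, which moved that median to -0.26, the counts were 14 cytosolic genes higher and 1 lower, which was *Farsa*, and 1 mitochondrial gene higher and 8 lower, against 1890 higher and 6913 lower of the 15719 genes tested there. Of the genes past the 2-fold rule 33.9% were higher in Tyr-H cells, against 48.4% with median-ratio scaling, 55.3% with quantile scaling and 26.2% with the common total. *Yars* rose and *Yars2* fell under every one of these scalings.

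The ratio of a cytosolic gene to its mitochondrial counterpart within a library does not depend on a single scaling factor for that library. Over 16 pairs, in which *Eprs* is set against both *Ears2* and *Pars2*, the mean ratio was higher in Tyr-H cells in 15, although for *Hars* over *Hars2* and *Lars* over *Lars2* the libraries of the groups overlapped. The median change in log2 ratio was 0.60 and the largest 1.34, for *Sars* over *Sars2*. The median log2 fold change of the cytosolic set lay 0.71 above that of all tested genes, and the mitochondrial median 0.06 above it. The pairs therefore repeat the rise of the cytosolic set and are not a separate result on the mitochondrial genes. For the tyrosyl pair, *Yars* over *Yars2* was 1.25, 1.23 and 1.23 in Tyr-L and 2.68, 2.36 and 2.59 in Tyr-H libraries. The change in log2 ratio was 1.04 (exact two-sided permutation p = 0.1). The exception was the phenylalanyl pair, in which *Farsa* over *Fars2* changed by -0.67. The cytosolic enzyme has a pair of subunits, and with *Farsb* in place of *Farsa* the change was -0.14, so the size rests on the subunit chosen. The smallest change among the other pairs was 0.19, for *Hars* over *Hars2*. The exons of *Hars* share 195 of 2447 bases with *Hars2* on the opposite strand, and the part of shared reads in this ratio was not tested. The mitochondrial set had the lower median level and the larger median coefficient of variation, as given above.

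**Figure D4:**
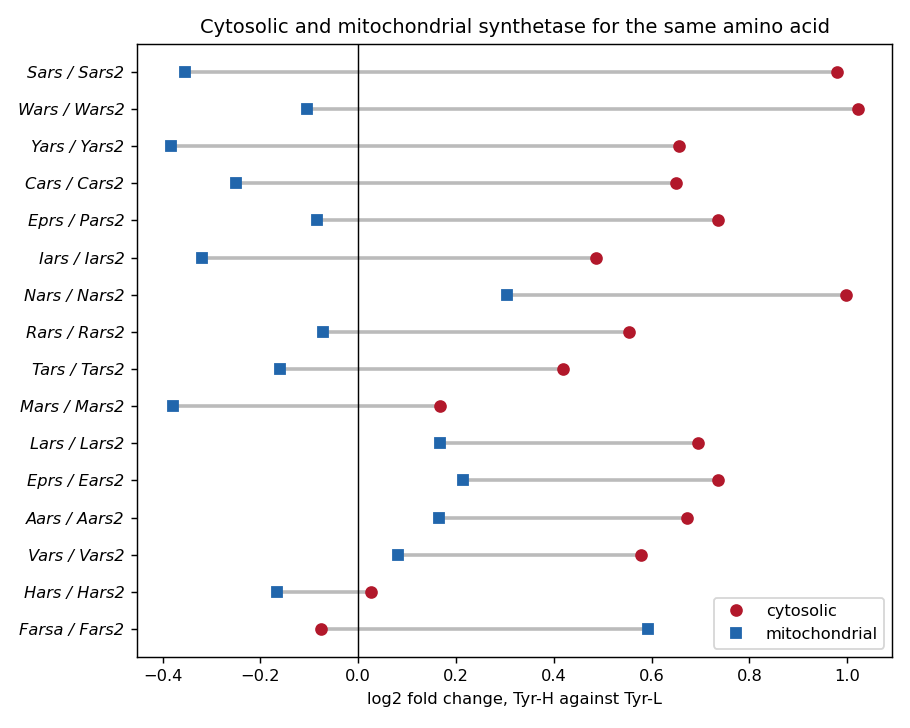
Log2 fold change, Tyr-H against Tyr-L, of the cytosolic and the mitochondrial gene of 16 pairs that charge the same amino acid. The cytosolic value is the higher of the pair in 15, and the phenylalanyl pair runs the other way (-0.08 for *Farsa* and 0.59 for *Fars2*).

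Other genes that act on tRNA were counted from a list outside the 40. Of 4 genes for tRNA maturation and export 3 rose and 0 fell, against 17.9% and 39.9% of all tested genes, among them *Xpot*, the tRNA exporter of the nucleus, from 22.0 to 36.5 FPKM (log2 fold change 0.72).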

How the data were processed

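Poly(A) RNA of 3 Tyr-H and 3 Tyr-L libraries was sequenced as paired-end reads. The deposited values are FPKM per gene, 1 table per library, made by the authors, whose processing notes name Trimmomatic, HISAT2 and the build GRCm38.p6. The quantifier and any use of strand are not given in the sources used here. FPKM values hold no counts, so depth was estimated from the smallest steps between low values, and the estimates are approximate. Genes unlisted in a table were taken as 0.

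Values were tested as log2(FPKM + 0.1) with limma 3.58.1 in R 4.3.3 (empirical Bayes with trend, Benjamini-Hochberg adjustment) over 14336 genes that averaged 0.1 FPKM or more. Fold changes on this scale understate those of low genes. Single values were compared by two-sided exact permutation (SciPy 1.17.1). The fitting script was tested on simulated data. Positions come from GENCODE M21 and promoters from RefSeq. Library values are given for *Yars*, *Yars2*, the scaffold genes, genes past the 2-fold rule, and up to 4 genes with the largest change per direction and set that passed, and *Mars* and *Lars2* were added after their values were seen. A promoter match and a gene list, beyond those given, are not reported here. The members and lists were chosen with earlier results of these data known. Alternatives changed the pseudocount, filter, scaling, trend, replicate block and libraries.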

Additional observations from a re-analysis of the deposited data

How the results depend on the processing

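Under 15 alternative settings the rise of *Yars* and the fall of *Yars2* kept direction and call. The change in log2 ratio, recomputed only with 1 library left out, ranged from 1.00 to 1.095. Rescaling libraries to one total turned the log2 fold changes of *Dars* (-0.032), *Hars* (-0.068), *Kars* (-0.047), *Qars* (-0.07) and *Vars2* (-0.012), none of which had passed the test. Median-ratio and quantile scaling turned *Farsa* (0.078 and 0.044), *Pars2* (0.065 and 0.083), *Rars2* (0.080 and 0.054) and *Wars2* (0.047 and 0.077). Leaving out each library in turn, *Hars* ranged from -0.005 (without Tyr-L replicate 1) to 0.056 and *Qars* from -0.031 (without Tyr-H replicate 3) to 0.062. The count of cytosolic genes that fell was 1 with rescaling. Mitochondrial genes that rose numbered 1 with rescaling, 2 with a pseudocount of 1 or with no filter, and 5 with median-ratio and with quantile scaling, and those that fell numbered 3 under both of the last. Of all tested genes 26.0% were higher and 27.8% lower with quantile scaling, and 11.9% and 26.5% with no filter. Leaving out 1 library at a time gave 1 to 3 mitochondrial genes higher and 5 to 6 lower, the 1 being without Tyr-L replicate 1 and without Tyr-H replicate 2. All genes past the 2-fold rule numbered 1254, falling to 388 with a pseudocount of 1 and 640 among genes averaging 1 FPKM or more, and 33.9% of them were higher, against 47.7% with that pseudocount, 48.4% with median-ratio, 55.3% with quantile scaling and 26.2% with rescaling. The cause of these changes was not tested.

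Replicate numbers did not pair the libraries, since deviations of same-numbered libraries correlated at 0.022, 0.013 and -0.083 over 14336 genes. A fit with the replicate block gave 15 cytosolic genes higher, 2 mitochondrial genes higher and 6 lower, and 1258 genes past the 2-fold rule, while *Ears2* (adjusted p = 0.078) and *Eef1e1* (adjusted p = 0.052) lost their calls. Depth limits little here, since the lowest gene had about 200 fragments, and 3 libraries a group limit small changes.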

Other observations

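Genes that use charged tRNAs were counted by compartment as well, beside 17.9% of all tested genes higher and 39.9% lower by the same rule. Of 5 cytosolic elongation factor genes 4 rose in Tyr-H cells and 0 fell, with a median log2 fold change of 0.34. *Eef2*, the translocation factor, went from 798 to 1111 FPKM (log2 fold change 0.48) and *Eef1a1*, which delivers charged tRNA to the ribosome, from 4384 to 5695 FPKM (0.38). Of 4 mitochondrial elongation factor genes 2 fell and 0 rose, with a median of -0.15, so both the count and the median were near those of all tested genes. *Gfm1*, the mitochondrial translocation factor, went from 61.3 to 47.9 FPKM (-0.35). Of 6 genes for the proofreading of charged tRNA and for selenocysteinyl-tRNA 1 rose and 2 fell, shares again near those of all tested genes, with a median of -0.05.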
